A study of Mus musculus with 9 samples.

Results

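The mitochondrial ribosomal protein genes were taken as every gene name in the 9 deposited count tables made of Mrpl or Mrps and a digit, with 5 names containing -ps left out as pseudogene copies. This gave 77 genes of 37840 gene names, 48 of them named for the large subunit (Mrpl) and 29 named for the small subunit (Mrps). These are groups of names, and a name need not give the place of the protein, as for Mrps36 below. They were set against 77 genes for proteins of the cytosolic ribosome (Rpl and Rps). RNA came from nuclei of mouse heart ventricles (C57BL6/J, sex not determined) and was captured by single-nucleus Drop-seq, in which a nucleus shares a droplet with a bead whose barcoded primers capture poly(A) RNA. Each unique molecular identifier (UMI) stands for 1 captured RNA molecule. Controls carried the genotype ERRalphaHet/ERRgammaWT, so the controls too were heterozygous for ERRα, and knockouts (KO) carried ERRalphaKO/ERRgammaKO. There were 3 control libraries of postnatal day 6 (control P6), 3 control libraries of postnatal days 9 to 10 (control P10) and 3 KO libraries of the same days (KO P10). The labels do not say whether the alleles act in the whole body or in 1 cell type, or which ventricles were frozen before nuclei were taken. They also do not say that the libraries came from separate animals, so p-values measure the spread between libraries, which may be technical.

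Mitochondrial ribosomes make the few proteins encoded by mitochondrial DNA, all of them subunits of the respiratory chain and ATP synthase. Their RNA comes from mitochondrial DNA, while every one of their proteins is encoded in the nucleus, made on cytosolic ribosomes and imported. ERRα (Esrra) and ERRγ (Esrrg) are nuclear receptors that bind genes of mitochondrial energy metabolism, which is built up in heart muscle after birth.

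Promoter sequences are shown for Mrps17, Mrps18c and Mrps14, which together with Mrps34 had the 4 smallest adjusted p in cardiomyocyte-like nuclei, and for Mrps36, which was added outside that rule after its values had been seen. The sequences are from RefSeq on GRCm38.p6, written 5′ to 3′ on the gene's strand, and each ends at the base before the gene's GENCODE start. Lower case is used except for matches to the searched motifs, which are in capitals.
Mrps17, chr5:129715297-129715496, plus strand: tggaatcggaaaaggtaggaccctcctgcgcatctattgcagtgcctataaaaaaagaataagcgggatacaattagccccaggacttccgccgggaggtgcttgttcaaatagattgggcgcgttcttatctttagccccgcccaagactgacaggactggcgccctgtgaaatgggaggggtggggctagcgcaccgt
Mrps18c, chr5:100798509-100798626, plus strand: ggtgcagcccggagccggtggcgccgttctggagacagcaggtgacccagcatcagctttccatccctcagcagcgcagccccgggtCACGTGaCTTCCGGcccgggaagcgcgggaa
Mrps14, chr1:160195015-160195214, plus strand: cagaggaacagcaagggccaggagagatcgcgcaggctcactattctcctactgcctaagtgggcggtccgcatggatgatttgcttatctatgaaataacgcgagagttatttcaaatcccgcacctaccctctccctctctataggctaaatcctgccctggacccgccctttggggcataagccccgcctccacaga
Mrps36, chr13:100744660-100744859, minus strand: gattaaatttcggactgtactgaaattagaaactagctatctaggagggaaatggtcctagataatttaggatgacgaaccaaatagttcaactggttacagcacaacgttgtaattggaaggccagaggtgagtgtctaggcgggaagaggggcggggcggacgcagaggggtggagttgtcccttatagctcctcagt

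Of the 4 sequences shown, that of Mrps18c alone held a match, an E-box (CACGTG) and, 1 base on, an ETS site read on the other strand (CTTCCGG). Over the 250 bases before the start, 74 RefSeq promoters of 68 of the 77 members were searched on both strands for 5 motifs, none of which contains another. The ETS motif CCGGAAG was in 17 of 74 promoters of members (23.0%), in 28.4% of 67 cytosolic ribosomal promoters and in 6.91% of all 32851 promoters. The NRF1 motif (GCGC, then AT, then GCGC) was in 3 (Mrpl32, Mrpl39 and Mrpl9; 4.05%), against 0 of 67 cytosolic and 0.782% of all promoters. The YY1 motif AAGATGGC was in 4 (Mrpl32, Mrpl36, Mrps11 and Mrps12; 5.41%), against 4.48% of cytosolic and 514 of all promoters. The E-box was in 7 (9.46%), against 10.4% and 6.02%. The extended ERR half-site TCAAGGTCA was in 0 of 74, in 0 of 67 and in 127 of 32851 (0.387%). A match is a description of letters, and no match says only that these letters are not in this window.

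The files listed 33000 barcodes, of which 25307 nuclei were kept, 1788 to 3681 a library, with median depths of 739 to 941 UMIs of nuclear genes. KO P10 libraries 1 and 2 shared 465 barcodes, while other library pairs shared at most 12, and the shared ones were left out of library 2. Clusters named from markers gave 10246 cardiomyocyte-like nuclei, 4599 fibroblast-like nuclei, 1881 endothelial-like nuclei and 1273 endocardial-like nuclei, and 5971 droplets fell in 4 unnamed clusters poor in the nuclear RNA Malat1. The groups shared the clusters of the cardiomyocyte-like class in unlike proportions. In control P6, 2860 of its 3165 nuclei fell in cluster 4 and 301 in cluster 6. In control P10, 2136 of 3714 fell in cluster 6 and 1426 in cluster 4. In KO P10, 1116, 970, 761 and 520 of 3367 fell in clusters 6, 7, 4 and 8. Mitochondrially encoded RNA was 0.888% to 2.61% of UMIs in control P6, 8.56% to 40.8% in control P10 (library 1 the highest) and 7.13% to 14.7% in KO P10, and neither the sums nor the totals used below include it. The targeted genes were checked first, though the labels do not say which part of each gene was removed. Esrra in cardiomyocyte-like nuclei stood at 105, 103 and 74.4 UMIs per 1000000 (CPM) in control P10 and at 8.45, 26.4 and 20.1 in KO P10, which is −2.39 ± 0.33 on the log2 scale (SE, edgeR adjusted p = 0.00041). Esrrg stood at 1942, 1340 and 1703 CPM in control P10 and at 770, 682 and 769 in KO P10 (−1.17 ± 0.27, adjusted p = 0.011), and it rose from control P6 to control P10 by 1.30 ± 0.27 (adjusted p = 0.0047).

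Summed over all 77 genes, the mitochondrial ribosomal protein share was lowest in cardiomyocyte-like nuclei in 9 of 9 libraries, when these were set beside the endothelial-like, endocardial-like and fibroblast-like nuclei and the Malat1-poor droplets. The Malat1-poor droplets had the highest share in 9 of 9 libraries, and endothelial-like nuclei came next in 7 of 9. In cardiomyocyte-like nuclei the share of nuclear UMIs was 0.234%, 0.303% and 0.375% in control P6, 0.131%, 0.236% and 0.200% in control P10, and 0.261%, 0.194% and 0.281% in KO P10. The means were 0.304% ± 0.0705, 0.189% ± 0.0532 and 0.245% ± 0.0455 (SD, n = 3 libraries each). Control P6 library 1 lay just under the highest control P10 library, so the ages overlapped, and KO P10 overlapped both. Classes were made from these cells, so the order of classes is a description with no test.

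In fibroblast-like nuclei the share was 0.352% ± 0.0965, 0.233% ± 0.038 and 0.310% ± 0.0217 in control P6, control P10 and KO P10. KO P10 (0.317%, 0.286% and 0.327%) lay above every control P10 library (0.190%, 0.263% and 0.245%), and the ages overlapped. In endothelial-like nuclei it was 0.471% ± 0.113, 0.280% ± 0.0881 and 0.364% ± 0.0721. In endocardial-like nuclei it was 0.398% ± 0.0713, 0.236% ± 0.0481 and 0.305% ± 0.0391, and there the 3 control P6 libraries (0.316% to 0.441%) lay above the 3 control P10 libraries (0.184% to 0.278%). The mean was lowest in control P10 in each of these 4 classes, and also in the smaller pericyte-like (0.363%, 0.268% and 0.350%) and macrophage-like classes (0.349%, 0.257% and 0.369%), which rest on 19 to 89 and 6 to 27 nuclei a library. Cardiomyocyte-like nuclei held a median of 3, 2 and 2 UMIs of all 77 genes together at median depths of 887, 1014 and 979 UMIs, so members were compared as sums over nuclei and not nucleus by nucleus.

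**Figure D1:**
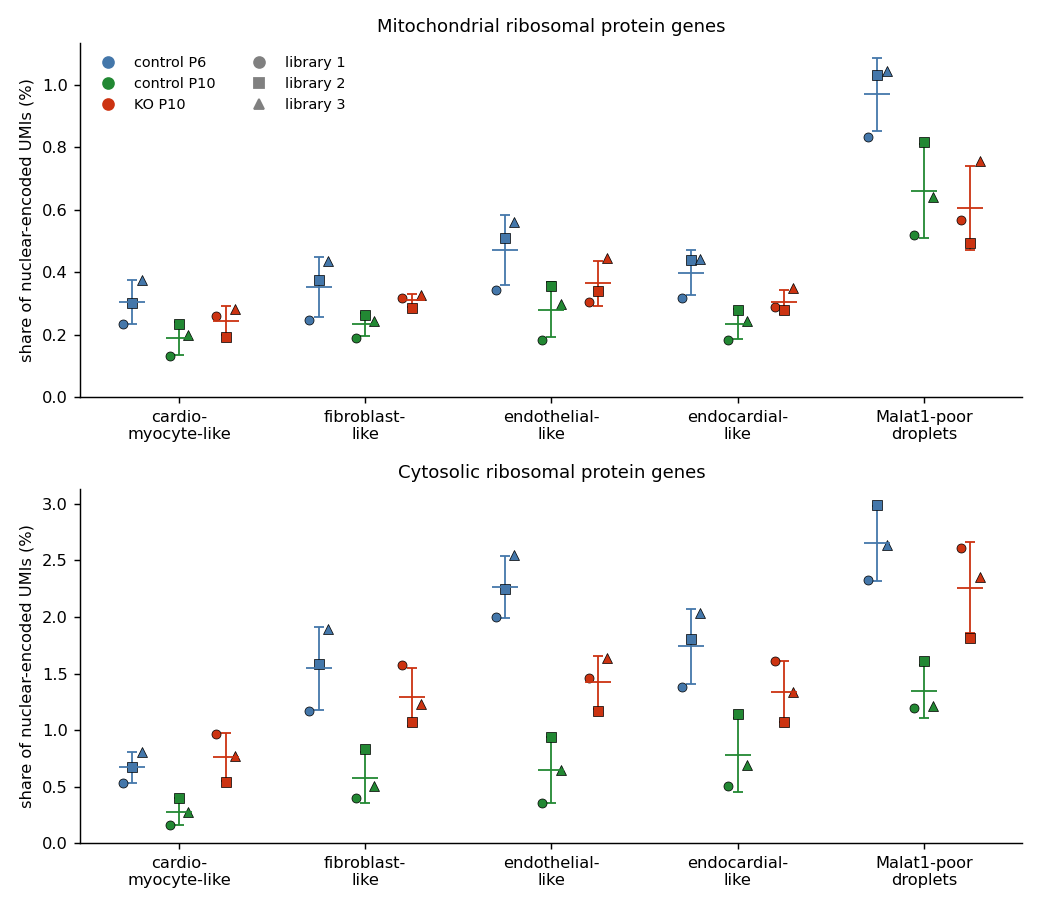
Share of nuclear-encoded UMIs (%) taken by mitochondrial (top) and cytosolic (bottom) ribosomal protein genes, by cell class and group. Points are libraries, and bars are the mean and SD of 3 libraries. Cardiomyocyte-like nuclei sit lowest and Malat1-poor droplets highest in both panels, and control P10 has the lowest mean of the 3 groups in each named class drawn.

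Cytosolic ribosomal protein genes held a larger share and differed more between groups. Their share in cardiomyocyte-like nuclei was 0.671% ± 0.134 in control P6, 0.282% ± 0.118 in control P10 and 0.760% ± 0.213 in KO P10. For each UMI of a mitochondrial ribosomal protein gene there were 2.30, 2.22 and 2.15 cytosolic ones in control P6, 1.25, 1.70 and 1.41 in control P10, and 3.71, 2.80 and 2.74 in KO P10. No 2 groups overlapped in this ratio, so the pair of gene sets did not keep 1 proportion across the groups. In fibroblast-like nuclei the mean ratio was 4.44, 2.45 and 4.17, and in endothelial-like nuclei 4.93, 2.25 and 3.97.

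Among the 75 members with enough UMIs to be tested in cardiomyocyte-like nuclei, the mean level over the 9 libraries ran from 7.47 to 109 CPM with a median of 27.5. The highest were Mrpl42 (109 CPM), Mrpl33 (94.9), Mrps5 (76.1), Mrpl52 (75.2) and Mrpl1 (72.8). The counts include intronic reads, and across these 75 members rho between gene span and mean level was 0.22, a description. Per kilobase of gene span the order changed to Mrpl34 (38.1 CPM per kb), Mrpl41 (33.0), Mrpl52 (26.4), Mrpl54 (19.2) and Mrps34 (16.4), all proteins of the large subunit but the last. The median member stood at 3.61 CPM per kb of span and the median cytosolic gene at 14.9. Mrps18b (10, 6 and 7 UMIs summed over control P6, control P10 and KO P10) and Mrps23 (4, 1 and 5) were too low for the test.

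Between control P6 and control P10, 12 of the 75 tested members fell in cardiomyocyte-like nuclei (edgeR quasi-likelihood test, adjusted p under 0.05 over all 11316 genes). By name, these were 6 of 48 Mrpl and 6 of 27 Mrps genes. Of all genes tested, 8.63% were called lower and 7.94% higher. The members' median log2 fold change was −0.63, against −0.04 over all genes, and 66 of 75 values were negative, from −2.01 to 0.48. The control P10 libraries lay below the control P6 libraries without overlap for 24 members, which is 32% against 19.3% of all genes. The medians of both groups of names were close, −0.64 for Mrpl and −0.53 for Mrps. The count was 0 without control P6 library 3, 6 without control P6 library 2, and 5 without control P10 library 1 or library 3. It was 1, with a median of −0.02, once the Malat1-poor cluster that carries cardiomyocyte markers was added, a setting chosen after the data were seen. That cluster held 36 droplets in control P6, 484 in control P10 and 798 in KO P10, so it added droplets mostly to the older groups.

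**Figure D2:**
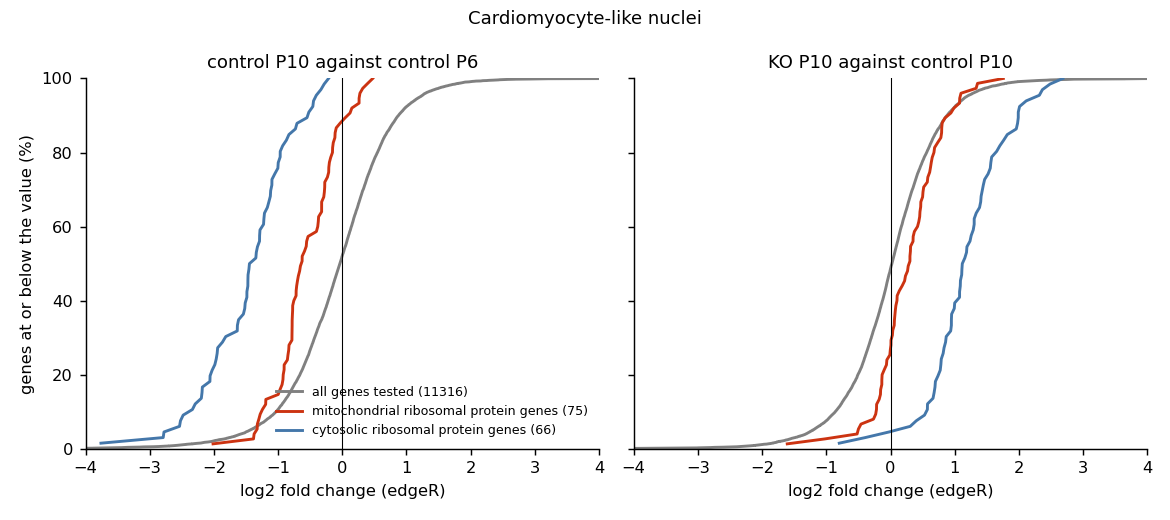
Cumulative share of genes (%) against the log2 fold change in cardiomyocyte-like nuclei, control P10 against control P6 (left) and KO P10 against control P10 (right), for all 11316 genes tested, 75 mitochondrial and 66 cytosolic ribosomal protein genes. The mitochondrial set lies to the left of all genes with age (median −0.63 against −0.04) and to the right in the knockout (0.30 against 0.02), and the cytosolic set lies further out in both.

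Mrps17, a small-subunit protein (chr5:129715497-129722556, plus strand), stood at 46.6, 64.7 and 71.1 CPM in control P6 and at 13.6, 34.1 and 22.4 in control P10. All 3 older libraries were below all 3 younger ones, and the log2 fold change was −1.32 ± 0.30 (adjusted p = 0.0083). In KO P10 it was at 30.4, 27.9 and 40.2 CPM, and that difference from control P10 did not pass (0.42, adjusted p = 0.41). Mrps14 (chr1:160195215-160202170, plus strand), another small-subunit protein, stood at 39.0, 46.9 and 60.9 CPM and then at 11.2, 26.7 and 18.2, a fall of 1.33 ± 0.31 on the log2 scale (adjusted p = 0.0092). The 2 ages did not overlap, and control P10 library 1 was the lowest for both genes. Mrps18c (chr5:100798627-100804471, plus strand) is 1 of 3 paralogs related to the same bacterial ribosomal protein. It stood at 39.0, 37.2 and 53.6 CPM and then at 14.9, 19.3 and 21.2 (−1.19 ± 0.28, adjusted p = 0.0091), again without overlap. Its paralog Mrps18a stood at 41.1, 31.3 and 37.9 CPM and then at 32.3, 36.9 and 37.5, with overlap (−0.03 ± 0.25).

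Mrps5, a small-subunit protein of the decoding region (chr2:127587222-127606829, plus strand), had the highest level among those that fell. It stood at 84.5, 144 and 119 CPM in control P6 and at 57.1, 64.2 and 56.3 in control P10 (−0.97 ± 0.25, adjusted p = 0.014), and KO P10 was at 53.5, 42.5 and 64.0. The control P10 libraries were close to each other and below all of control P6. Mrpl22, a large-subunit protein near the exit tunnel, had the largest fall, −2.01 ± 0.50 (adjusted p = 0.013), but on 42 UMIs summed over control P6 and 13 over control P10. The other small-subunit calls were Mrps21 (−1.19 ± 0.34, adjusted p = 0.025) and Mrps26 (−1.38 ± 0.41, adjusted p = 0.03). The other large-subunit calls were Mrpl4 (−1.37), Mrpl41 (−1.28), Mrpl52 (−0.92), Mrpl24 (−0.83) and Mrpl21 (−0.78), with adjusted p from 0.02 to 0.047. Of the 12 genes, Mrps17, Mrps14, Mrps18c and Mrpl22 lost the call only without control P6 library 3 when libraries were left out singly, and Mrps5 lost it without library 2 or 3 of control P6 or library 3 of control P10. Mrpl21 and Mrpl24 each lost it without any 1 of 6 libraries.

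Other members with known roles did not pass the test between the ages. Mrpl12, the stalk protein that also binds mitochondrial RNA polymerase, stood at 50.9, 78.1 and 99.7 CPM and then at 32.3, 62.5 and 36.3 (−0.78 ± 0.30, adjusted p = 0.085). Mrpl44, in which mutations cause cardiomyopathy, was low in both groups, at 8.66, 11.9 and 12.9 CPM and then at 2.48, 6.25 and 9.68 (−0.75 ± 0.45). The ages overlapped for both genes. Of the 2 members with the highest CPM, Mrpl42 had a log2 fold change of −0.32 and Mrpl33 of −0.86 (adjusted p = 0.057), and Mrps35 was at −0.27.

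Fibroblast-like nuclei gave 8 members lower at control P10 of 65 tested (background 6.85% lower and 6.68% higher), with a median of −0.55 against −0.04 over 8552 genes. These were Mrpl27 and the small-subunit members Mrps5, Mrps14, Mrps17, Mrps18c, Mrps21, Mrps26 and Mrps31. The ages did not overlap for 15 members, lower at control P10, 23.1% against 15.3% of all genes. Mrps17 stood at 69.3, 74.3 and 114 CPM and then at 16.8, 36.5 and 18.0, all older libraries below all younger ones (−1.75 ± 0.36, adjusted p = 0.0036). Of the 34 calls made in single classes over both comparisons, this was the only one kept in every alternative in which it was tested and with each library left out in turn, with adjusted p from 0.000688 to 0.0430. At a minimum of 1000 UMIs per nucleus it was not among the 14 members tested. Mrps21 fell by 1.29 ± 0.31 (adjusted p = 0.011), Mrps18c by 1.35 ± 0.34 (adjusted p = 0.013) and Mrps5 by 1.07 ± 0.33 (adjusted p = 0.037). Mrpl27, a large-subunit protein next to the peptidyl-transferase centre, stood at 41.6, 85.9 and 41.9 CPM and then at 12.6, 23.9 and 16.2 (−1.62 ± 0.41, adjusted p = 0.014). Mrps31 (−1.57 ± 0.47), Mrps14 (−1.31) and Mrps26 (−0.99) passed with adjusted p from 0.032 to 0.044. Mrps5 and Mrps26 were lost also without KO P10 library 3, and Mrps26 and Mrps31 without control P10 library 2. The count was 14 without control P6 library 1, 2 without control P6 library 2 or 3, 5 without control P10 library 1, and 1 without control P10 library 3.

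Endothelial-like nuclei gave 9 members lower at control P10 of 49 tested, against a background of 13.3% lower, with a median of −0.66 against 0.00 over all genes. The control P10 libraries lay below the control P6 libraries without overlap for 17 members, 34.7% against 22.4% of all genes. Mrpl45 alone lay above without overlap (21.6% of all genes did), and its difference of 1.08 ± 0.41 did not pass (adjusted p = 0.0503). Mrps21 had the smallest adjusted p, at 74.1, 156 and 169 CPM and then at 19.5, 46.6 and 53.0 (−1.52 ± 0.41, adjusted p = 0.0079), without overlap. Mrps17 fell by 1.30 ± 0.41 (adjusted p = 0.019) and Mrps5 by 0.92 ± 0.34 (adjusted p = 0.049). Large-subunit calls were Mrpl57 (−1.40), Mrpl17 (−1.13), Mrpl58 (−1.11), Mrpl34 (−1.06), Mrpl52 (−0.94) and Mrpl33 (−0.84), with adjusted p from 0.017 to 0.043. Mrpl58 is a peptidyl-tRNA hydrolase that frees stalled chains. Mrps5 lost its call here without any 1 of the 9 libraries, and Mrps21 only without control P6 library 3. The count was 0 without control P6 library 3, 2 without control P6 library 2, 3 without control P10 library 1, 1 without control P10 library 3, and 3 by DESeq2. In endocardial-like nuclei, with 24 members tested, edgeR called 0 (background 4.25% lower and 3.83% higher), 9 had an unadjusted p under 0.05, DESeq2 called 0, and the median was −0.80.

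Across the 3 classes with calls, 19 members were called lower with age. Mrps17, Mrps21 and Mrps5 were called in all 3 classes, Mrpl52, Mrps14, Mrps18c and Mrps26 in 2, and 12 in 1. The share of all genes called in 2 or 3 classes was not counted, so recurrence is not read as a trait of these members. The classes share libraries and droplet runs, so they are not separate repeats of the comparison. When the difference of the age effect between cardiomyocyte-like and fibroblast-like nuclei was tested itself, edgeR called 0 of 74 members (2.29% of all genes), 4 had an unadjusted p under 0.05, and no other tool was run.

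In sums over all barcodes of a library, 11 of 76 tested members were called lower at control P10 (background 11.3%) and Mrpl16 was called higher (background 8.63%). The median was −0.29 against −0.02 over all genes. In such sums, fewer cells of a type and less RNA per cell cannot be told apart, and they hold the Malat1-poor droplets too. Mrpl16, a large-subunit protein, stood at 23.9, 22.1 and 28.3 CPM and then at 45.0, 40.3 and 35.3, without overlap (0.70 ± 0.22, adjusted p = 0.042). The members called lower were Mrpl4, Mrpl22, Mrpl23, Mrpl40, Mrpl57, Mrps5, Mrps17, Mrps18c, Mrps22, Mrps23 and Mrps26. A pseudogene copy named Mrpl23-ps1, listed apart, held 218, 50 and 58 UMIs in control P6, control P10 and KO P10. How reads were assigned between it and Mrpl23 is uncertain. Left-out libraries moved the 12 calls to 19 (without control P6 library 1), 0 (control P6 library 2 or control P10 library 3), 1 (control P6 library 3) and 2 (control P10 library 1).

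Other measures moved with age and genotype, and their part in these results and in those on the knockout was not tested. Mitochondrially encoded RNA in cardiomyocyte-like nuclei was 0.762% of UMIs in control P6, 13.9% in control P10 and 7.43% in KO P10, and Malat1 was 17.5%, 12.2% and 11.3%, lowest in KO P10 library 1 (5.61%). Of the 8 fibroblast markers, all found, the summed share in cardiomyocyte-like sums was 0.0672% to 0.0809% in control P6, 0.160% to 0.180% in control P10 and 0.110% to 0.424% in KO P10. The 6 erythroid markers, all found, made up 0.145% to 0.164%, 0.120% to 0.227% and 0.255% to 1.01%, and the class's own 9 markers 4.91% to 4.94%, 5.25% to 6.21% and 4.49% to 6.28%. In fibroblast-like sums the 9 cardiomyocyte markers made up 0.467% to 0.579%, 1.13% to 1.81% and 1.90% to 2.98%, and in endothelial-like sums 0.800% to 1.14%, 2.59% to 4.37% and 2.75% to 4.55%. Erythroid markers in fibroblast-like sums made up 0.167% to 0.185%, 0.186% to 0.286% and 0.450% to 1.97%, and endothelial-like nuclei held less of their own markers after control P6 (1.22% to 1.41%, then 0.307% to 0.652% and 0.415% to 0.635%). No erythroid, fibroblast or cardiomyocyte marker was at 0 in all 9 libraries of the cardiomyocyte-like sums.

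In the knockout, set against control P10, 3 members rose and 1 fell of 75 tested in cardiomyocyte-like nuclei (background 6.19% higher and 6.14% lower), and all 4 are named for the small subunit. Mrps34, Mrps7 and Mrps14 rose and Mrps36 fell. The members' median log2 fold change was 0.30 against 0.02 over all genes, 55 of 75 values were positive, and 16 had an unadjusted p under 0.05. KO P10 lay above control P10 without overlap for 17 members (22.7% against 15.5% of all genes) and below it for 2 (2.67% against 14.2%), Mrps36 and Mrpl47. This comparison and the one between ages share the control P10 libraries, so each gene's values are given side by side and no overlap of the 2 sets of calls is read. The count was 2 without control P10 library 1, 7 without library 2, 1 without library 3, and 2 without KO P10 library 3. It was 7 with the barcodes shared by KO P10 libraries 1 and 2 kept in both, and 1 with each nucleus classed by its own marker UMIs, which was none of these 4 genes but Mrps18c.

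**Figure D3:**
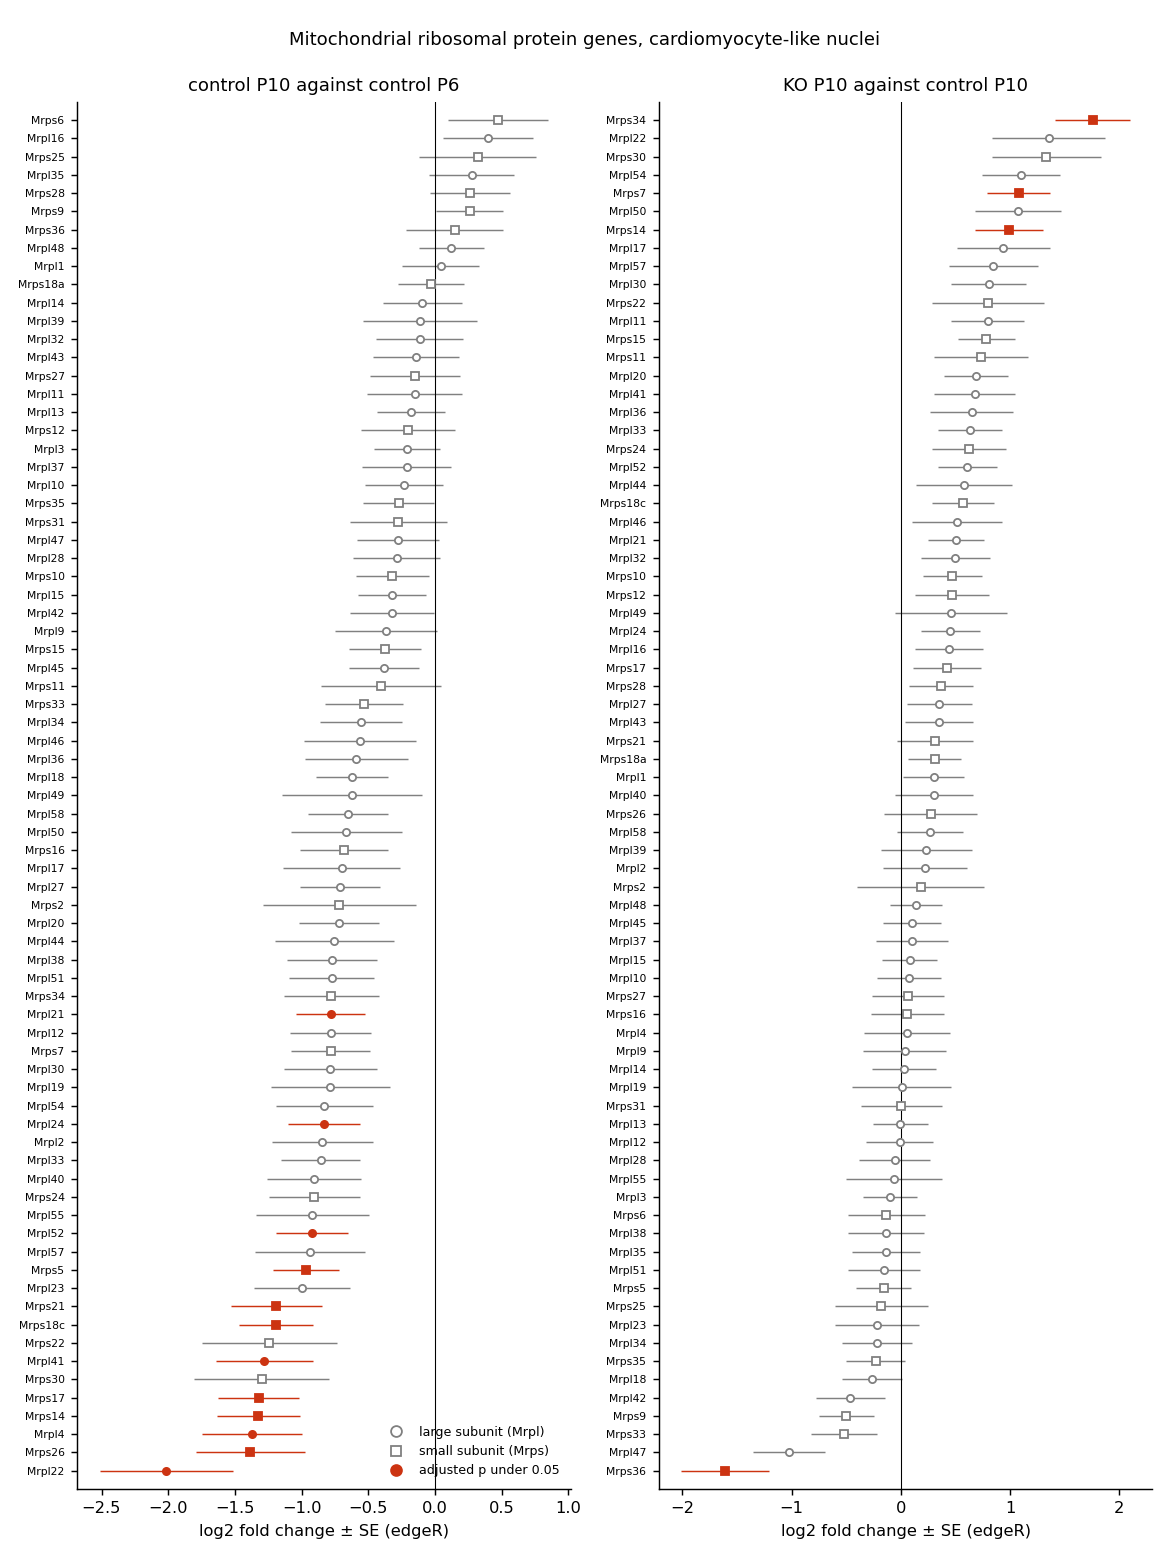
Log2 fold change and SE of each of the 75 tested members in cardiomyocyte-like nuclei for both comparisons. Circles are genes named Mrpl and squares genes named Mrps, and red marks an edgeR adjusted p under 0.05. With age 12 are red, all below 0, and in the knockout Mrps34, Mrps7 and Mrps14 are red above 0 and Mrps36 below.

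Mrps34, a small-subunit protein needed to keep the ribosomal RNA of that subunit stable (chr17:24895116-24897502, plus strand), showed the largest rise. It stood at 7.44, 19.3 and 27.8 CPM in control P10 and at 54.6, 60.9 and 82.3 in KO P10, with 23.8, 32.7 and 42.5 in control P6. Every KO P10 library was above all 6 control libraries, and the log2 fold change against control P10 was 1.76 ± 0.34 (adjusted p = 0.0041). Between the ages it did not pass (−0.78, adjusted p = 0.14). The call held with each library left out, and its log2 fold change ran from 1.40 to 2.17 over the alternatives. It was lost in 1, with nuclei classed by their own marker UMIs (1.40, adjusted p = 0.106, in a range of 2.17e-06 to 0.106). In all barcodes Mrps34 stood at 46.1, 55.5 and 43.8 CPM in control P10 and at 112, 137 and 184 in KO P10 (1.57 ± 0.28, adjusted p = 0.0042).

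Mrps34 overlaps Nme3 on the same strand and Mapk8ip3 on the other strand. Nme3, a nucleoside diphosphate kinase, moved the same way in cardiomyocyte-like nuclei (KO 1.63 ± 0.34, adjusted p = 0.0061, and age −1.45, adjusted p = 0.010), while Mapk8ip3 was at 0.01 ± 0.28 in the knockout. How reads in the overlap of these genes were assigned is not stated, so the values of Mrps34 and Nme3 may share reads. The use of strand in counting is not stated either, so reads of overlapping and antisense genes cannot be told apart. Of the 77 members, 41 overlap another gene, 35 on the opposite and 12 on the same strand. Among the 35 tested members that overlap no other gene, 8 were lower with age in cardiomyocyte-like nuclei (median −0.66, background 8.63% lower). In the knockout 1 of them was higher and 1 lower (background 6.19% higher and 6.14% lower).

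Mrps7, a small-subunit protein that binds the ribosomal RNA early in assembly (chr11:115603925-115608036, plus strand), stood at 13.6, 15.3 and 15.7 CPM in control P10 and at 30.4, 25.7 and 40.2 in KO P10, with 22.7, 24.6 and 30.5 in control P6. The control P10 libraries were the lowest of the 9 (KO against control P10 1.08 ± 0.29, adjusted p = 0.022). The call was lost without control P10 library 1 or 3 or KO P10 library 3. It was also lost at a minimum of 1000 UMIs, with nuclei classed by their own marker UMIs and with the Malat1-poor cluster of cardiomyocyte markers added (adjusted p from 0.0117 to 0.453 over all alternatives). Its opposite-strand neighbours Gga3 (0.45) and Mif4gd (−0.54) moved less. Mrps14 stood at 45.6, 30.1 and 40.2 CPM in KO P10, above the 11.2 to 26.7 of control P10 and within the range of control P6 but for library 2 (0.99 ± 0.31, adjusted p = 0.047). That call was lost without any 1 of 7 libraries, namely all 3 of control P6, control P10 libraries 1 and 3 and KO P10 libraries 1 and 3, and under 7 of 12 other settings, DESeq2 among them.

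Mrps36 (chr13:100735955-100744659, minus strand) is named for the small subunit, but its protein is now placed in the 2-oxoglutarate dehydrogenase complex of the citric acid cycle. It stood at 12.4, 27.8 and 27.8 CPM in control P10 and at 5.63, 9.54 and 8.23 in KO P10, with 21.1 ± 7.83 (SD, n = 3) in control P6. All KO P10 libraries lay below all 6 control libraries, on 105 UMIs in control P10 and 32 in KO P10 (−1.61 ± 0.40, adjusted p = 0.016). The call was lost without control P10 library 3 (adjusted p = 0.087), at a minimum of 1000 UMIs and with nuclei classed by their own marker UMIs (−1.10, adjusted p = 0.421, in a range of 0.0024 to 0.421). Pseudogene copies named Mrps36-ps1, -ps2 and -ps3 are listed apart, so reads of near-identical copies are uncertain here. In sums over all barcodes Mrps36-ps1 held 73, 10 and 7 UMIs in control P6, control P10 and KO P10. In cardiomyocyte-like nuclei it held 13 UMIs over all libraries together.

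**Figure D4:**
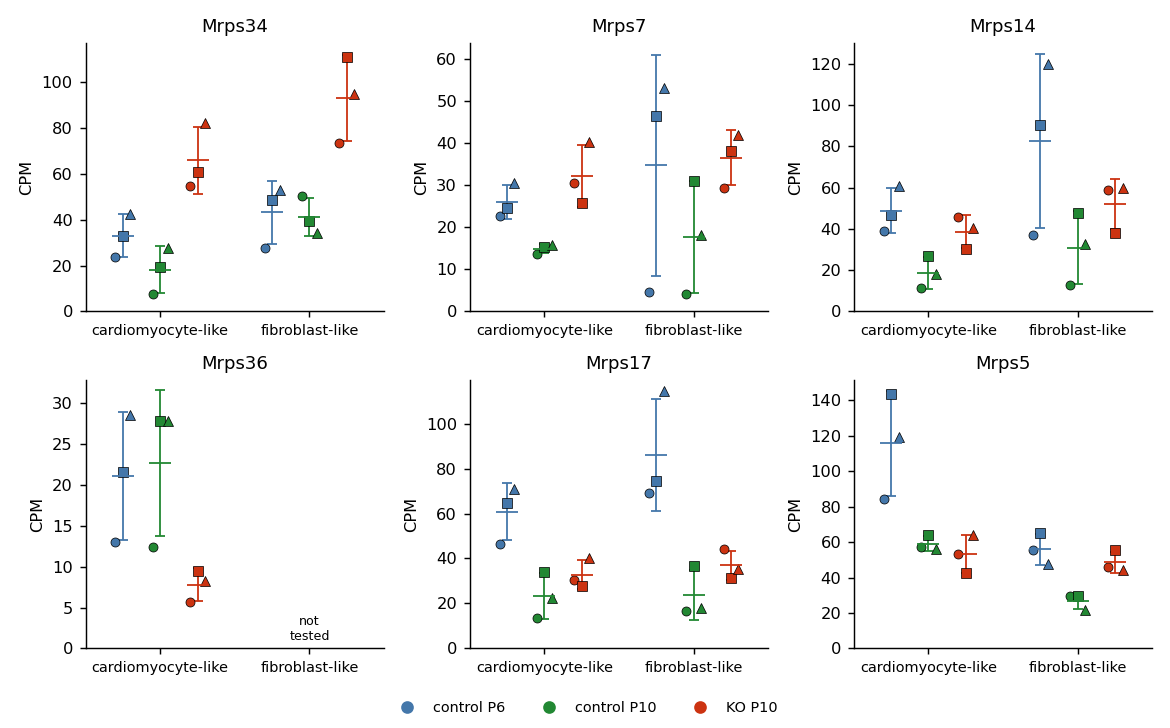
CPM per library of Mrps34, Mrps7, Mrps14, Mrps36, Mrps17 and Mrps5 in cardiomyocyte-like and fibroblast-like nuclei of the 3 groups, with mean and SD of 3 libraries; Mrps36 was not tested in fibroblast-like nuclei. In cardiomyocyte-like nuclei Mrps34 is highest and Mrps36 lowest in KO P10, while Mrps17 and Mrps5 are highest in control P6.

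The other members named here did not pass the test in the knockout. Mrpl54, a large-subunit protein, stood at 11.2, 35.2 and 28.4 CPM in control P10 and at 49.6, 41.1 and 79.6 in KO P10, without overlap (1.10 ± 0.36, adjusted p = 0.053). Mrpl12 was at −0.01, Mrps18a at 0.31 ± 0.24, Mrpl44 at 0.58 ± 0.44, Mrps35 at −0.23, Mrpl42 at −0.46 and Mrpl33 at 0.64 (adjusted p = 0.18). Mrps17, Mrps18c and Mrps5, which fell with age, were at 0.42, 0.57 and −0.16.

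In fibroblast-like nuclei 1 of 65 tested members was called in the knockout, Mrps34 (background 2.25% higher), and the median was 0.44 against 0.00 over all genes. It stood at 50.5, 39.3 and 34.3 CPM in control P10 and at 73.4, 111 and 95.0 in KO P10, without overlap (1.19 ± 0.31, adjusted p = 0.034). KO P10 lay above control P10 without overlap for 17 members, 26.2% against 11% of all genes. The Mrps34 call was lost by DESeq2, with nuclei classed by their own marker UMIs, and without control P6 library 2, any 1 control P10 library or KO P10 library 2 or 3, and at a minimum of 1000 UMIs the gene was not among the 14 members tested. Without KO P10 library 1 the count was 2. In these nuclei Nme3 was at 1.32 ± 0.41 (adjusted p = 0.082). In endothelial-like nuclei edgeR called 0 of 49 (background 1.51% higher and 0.901% lower), 7 had an unadjusted p under 0.05, and DESeq2 called 0. KO P10 lay above control P10 without overlap for 10 of them (background 9.69%), and Mrps34 was at 1.01 ± 0.43 (adjusted p = 0.23). In endocardial-like nuclei edgeR called 0 of 24 (background 1.33% higher and 0.888% lower), 2 had an unadjusted p under 0.05, DESeq2 called 0, and Mrps34 was at 1.09 ± 0.61.

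The difference of the knockout effect between cardiomyocyte-like and fibroblast-like nuclei was also tested per member. edgeR called 0 of 74 (1.4% of all genes), 7 had an unadjusted p under 0.05, and the smallest adjusted p was 0.175, for Mrps5, with no other tool run. For Mrps34 the effect in cardiomyocyte-like nuclei exceeded that in fibroblast-like nuclei by 0.51 ± 0.37 (adjusted p = 0.63), and for Mrps36 the difference was −1.45 ± 0.66 (adjusted p = 0.34).

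Sums over all barcodes gave 9 members higher in KO P10 of 76 tested (background 7.01% higher and 4.75% lower), with a median of 0.37 against 0.03. They were Mrps34, Mrpl54 (1.04, adjusted p = 0.017), Mrpl17 (1.01), Mrps14 (1.10), Mrps15 (0.87), Mrpl20 (0.86), Mrpl21 (0.86), Mrpl57 (0.81) and Mrps23. Mrps23 had a log2 fold change of 2.59 (adjusted p = 0.026), but on 5 UMIs in control P10 and 32 in KO P10. The count was 5 without control P6 library 2, 2 without control P10 library 1, 1 without control P10 library 3 or KO P10 library 3, and 18 without KO P10 library 2.

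Proteins of the mitochondrial ribosome that carry other names were tested in the same fit. In cardiomyocyte-like nuclei of KO P10, 3 of 5 rose (background 6.19% higher). Chchd1 was at 31.4 CPM in control P10 and 87.4 in KO P10 (1.41 ± 0.34, adjusted p = 0.015), Aurkaip1 at 15.2 and 36.4 (1.18 ± 0.33, adjusted p = 0.029) and Gadd45gip1, a large-subunit protein, at 13.8 and 30.6 (1.08 ± 0.33, adjusted p = 0.039). Chchd1 and Aurkaip1 are small-subunit proteins. The other 2, Dap3 (0.59, adjusted p = 0.13) and Ptcd3 (−0.76, adjusted p = 0.075), did not pass. With age 1 of 5 fell (background 8.63% lower), Gadd45gip1 (−1.15 ± 0.33, adjusted p = 0.025). In fibroblast-like nuclei Chchd1 rose in the knockout (1.05 ± 0.28, adjusted p = 0.039), and in endothelial-like nuclei Aurkaip1 (−1.21) and Gadd45gip1 (−1.10) fell with age.

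Genes that work with the mitochondrial ribosome were tested in cardiomyocyte-like nuclei in the same fit. Of all genes there, 8.63% were called lower and 7.94% higher with age, and 6.19% higher and 6.14% lower in the knockout. The lists are short, so their counts are given as a description. Of 11 translation factors tested, Guf1, the back-translocating elongation factor (−0.85 ± 0.25, adjusted p = 0.03), and Taco1, the translational activator of cytochrome oxidase subunit I (−1.35 ± 0.40, adjusted p = 0.028), fell with age, and in the knockout edgeR called 0, with 1 at an unadjusted p under 0.05. Of 20 aminoacyl-tRNA synthetases and related enzymes, Fars2, which charges phenylalanine, rose with age (1.14 ± 0.25, adjusted p = 0.006), and Qrsl1, part of the enzyme that makes glutaminyl-tRNA, fell in the knockout (−0.88 ± 0.28, adjusted p = 0.047). Of 18 assembly and RNA modification factors edgeR called 0 with age and 0 in the knockout, with 4 and 0 at an unadjusted p under 0.05 and medians of −0.46 and −0.14. Of 11 genes of mitochondrial DNA transcription and upkeep, Ssbp1, the single-strand binding protein (−1.59 ± 0.25, adjusted p = 0.001), and Polg, the catalytic subunit of the DNA polymerase (−1.36 ± 0.37, adjusted p = 0.02), fell with age. In the knockout 1 of these 11 was called, Lrpprc, which keeps mitochondrial messenger RNA stable, at 112 CPM in control P10 and 56.6 in KO P10 (−0.98 ± 0.21, adjusted p = 0.0075). Of 9 regulators, Esrra and Esrrg were the ones called.

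Among the cytosolic ribosomal protein genes in cardiomyocyte-like nuclei, 51 of 66 tested fell with age (median −1.40) and 39 rose in the knockout (median 1.14), against 12 lower and 3 higher among 75 mitochondrial ones. Rps3a1 stood at 97.4, 132 and 147 CPM in control P6, at 22.3, 40.3 and 30.3 in control P10 and at 155, 152 and 186 in KO P10. The 3 groups did not overlap for it (age −1.98 ± 0.26, adjusted p = 0.00035, and KO 2.37 ± 0.26, adjusted p = 8e-05). With age Rpl36 (−2.78 ± 0.37) and Rpl29 (−2.29 ± 0.33) followed by adjusted p, and in the knockout Rps4x (2.69 ± 0.34) and Rps9 (1.55 ± 0.23). The muscle-specific paralog Rpl3l fell in the knockout (−1.84 ± 0.44, adjusted p = 0.013), opposite to Rpl22l1 (1.35 ± 0.39, adjusted p = 0.034). Many cytosolic ribosomal protein genes have processed copies in the genome, so how their reads were assigned is uncertain.

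In the other classes tested the cytosolic calls had the same directions. In fibroblast-like nuclei 53 of 62 fell with age, led by Rps4x (−2.43), Rps16 (−2.86) and Rpl29 (−2.47), and 22 rose in the knockout, among them Rps4x (2.20) and Rps3a1 (2.04). In endothelial-like nuclei 54 of 55 fell with age, led by Rpl29 (−3.80), Rpl35 (−2.77) and Rpl35a (−2.41), and 16 rose in the knockout, led by Rps3a1 (2.16), Rps2 (1.91) and Rpl29 (2.96). The members' medians in the same nuclei were −0.55 and 0.44 in fibroblast-like and −0.66 and 0.32 in endothelial-like nuclei.

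The members are spread over 17 chromosomes and span 789 to 121773 bp, with a median of 7905 bp against 3289 bp for cytosolic genes. Across the 75 tested members, Spearman's rho between gene span and log2 fold change was 0.42 with age and −0.30 in the knockout, so short genes tended to have the more negative values with age and the more positive ones in the knockout. These points share libraries, depth and the counting of introns, and genes are not independent replicates.

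Malat1 is kept in nuclei. Droplets poor in it held 20.6, 9.11 and 8.39 UMIs of members on average in control P6, control P10 and KO P10. Cardiomyocyte-like nuclei held 3.18, 2.40 and 3.02. The medians were lower, at 10, 6 and 5 in the droplets and 3, 2 and 2 in the nuclei. Median depths were 946.5, 865 and 845 UMIs in the droplets and 887, 1014 and 979 in the nuclei. The largest cluster of these droplets differed by group. It was cluster 0 in control P6 (662 of 792), cluster 3 in control P10 (1306 of 1933) and cluster 12 in KO P10 (1403 of 3246). Only cluster 10 (1318 droplets) scored highest for cardiomyocyte markers, and clusters 3 and 12 did so for erythroid markers. Cell type and the part of the cell that RNA came from cannot be told apart in this contrast. In CPM of unscaled totals, with 1 CPM added, 65 of 77 members were higher in Malat1-poor droplets than in cardiomyocyte-like nuclei in all 9 libraries. So were 60 of 77 cytosolic genes and 24.2% of 12512 genes with at least 50 UMIs in cardiomyocyte-like sums. The members and cytosolic genes were not held to that minimum. The median log2 ratio was 1.69 for members and 1.83 for cytosolic genes, against −0.07 for the 12512 genes. Mrpl44 had the highest ratio (2.63) and Mrps34 was at 2.09. Mrpl23 was lower in Malat1-poor droplets in all 9 libraries (−1.17), and Mrpl1 (−0.48), Mrps10 (−0.28) and Mrps5 (−0.08) also had negative means. The value of Mrpl23 carries the uncertainty over its copy Mrpl23-ps1 given above. Across the 77 members rho between gene span and this ratio was −0.43, a description with the same limits.

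**Figure D5:**
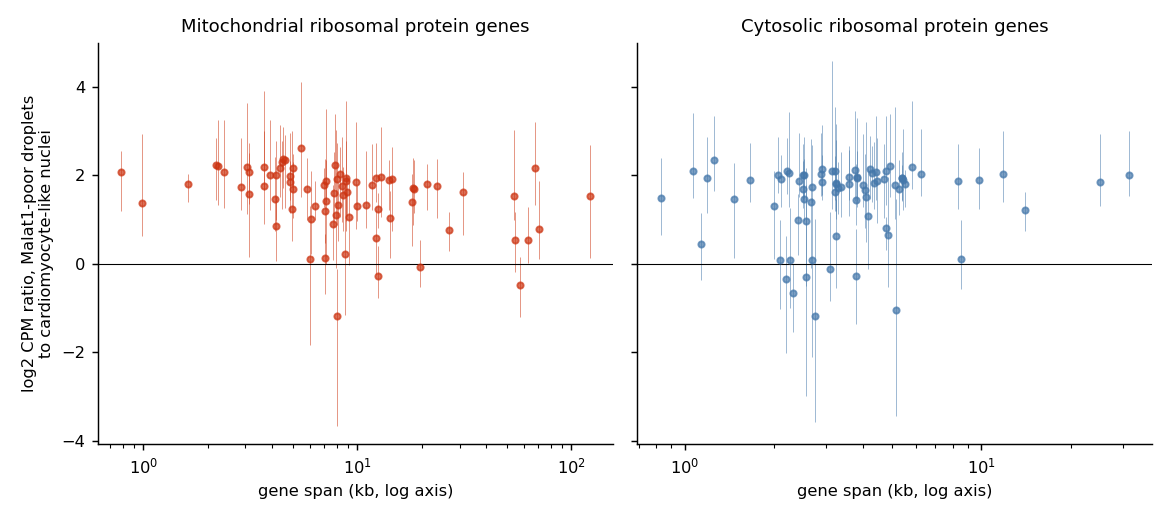
Gene span (kb, log axis) against the log2 ratio of CPM in Malat1-poor droplets to CPM in cardiomyocyte-like nuclei, for mitochondrial (left) and cytosolic (right) ribosomal protein genes; points are means over 9 libraries and lines run from the lowest to the highest library. Most members lie above 0 (median 1.69), and Mrpl23 lies below 0 in every library.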

How the data were processed

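The deposited tables list, for each barcode, the UMI count of each gene as whole numbers without normalization, exonic and intronic reads included, per the file names. Per the submitters' processing notes, the authors used STAR 2.5.2a and the mm10 build. The gene annotation, strand and barcode rule are not given in the sources used here. The members and lists were chosen with earlier results of these data known.

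Mitochondrially encoded genes and barcodes under 500 UMIs were left out, as was the top 5% of Scrublet scores in each library as candidate doublets (1332 barcodes). Counts were scaled to 1000 per nucleus. The 2000 most variable genes, 30 principal components, 15 neighbours and Leiden resolution 1 (scanpy 1.11.5, leidenalg 0.10.2, seed 1) gave 15 clusters, named from markers. A cluster was Malat1-poor where its Malat1 share was under 40% of the median over clusters.

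UMI sums per class and library (941766 to 1784173 in cardiomyocyte-like, 236208 to 739717 in fibroblast-like, 116751 to 478635 in endothelial-like and 59179 to 266778 in endocardial-like nuclei) were tested with edgeR 4.0.16 (R 4.3.3): TMM, filterByExpr, quasi-likelihood F-test on group over all 9 libraries, 2-sided, Benjamini-Hochberg over all genes of a fit. CPM are UMIs per 1000000 of the TMM-scaled total of nuclear genes, except in the contrast with Malat1-poor droplets, where totals were not scaled. Counting error grows as sums shrink, and more members fall under the filter in the smaller classes. On simulated data the fit recovered 21% of 2-fold and 89% of 4-fold changes among 11316 genes (cardiomyocyte-like), and 26% and 87% among 8552 (fibroblast-like). Only the knockout comparison was simulated, with 200 changed genes drawn from all those tested, so these rates are not those of the members. Alternatives were DESeq2 1.42.0, other scaling, no filter, a block on replicate number, 2-group fits, 1000 UMIs, doublets or shared barcodes kept, classes from a nucleus's own markers, and each library left out. Gene spans are from GENCODE vM21 (GRCm38).

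Named were members past an adjusted p of 0.05 in a class, the 5 highest by CPM and by CPM per kb of span, Mrps18a, Mrps18b, Mrps18c, Mrps36, Mrpl12, Mrpl44 and Mrps35, called genes of the lists, and the 3 cytosolic genes with the smallest adjusted p in each comparison. A cytosolic gene among these is not reported here. Other genes named (Mrpl45, Mrpl47, Mrpl54, Mrpl23, Mrps10, neighbours of Mrps34 and Mrps7) were chosen after their values were seen.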

Additional observations from a re-analysis of the deposited data

How the results depend on the processing

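No value called in a single class changed sign under the alternatives run, and signs of the calls in all barcodes were not checked. Most calls of single genes were lost when some library was left out, often any 1 of several. Of the 34 calls made in single classes, 32 were lost without some library and 28 under some other setting. The cause was not tested, except that leaving out a library or a class leaves fewer samples or UMIs. Numbers of members called moved as follows. Between the ages in cardiomyocyte-like nuclei (12), a class taken from each nucleus's own marker UMIs (own markers) gave 21 and adding the Malat1-poor cluster with cardiomyocyte markers gave 1. In fibroblast-like nuclei (8), DESeq2 gave 5 and a minimum of 1000 UMIs, with 14 members tested, gave 0. In endothelial-like nuclei (9), DESeq2 gave 3, no low-count filter 3 and own markers 2. In endocardial-like nuclei (0), DESeq2 size factors in edgeR gave 1, as did keeping doublets. In all barcodes (12), no filter gave 7. In the knockout, cardiomyocyte-like nuclei (4) gave 2 at 1000 UMIs, 7 with shared barcodes kept, 1 by own markers and 2 with the Malat1-poor cluster added. Fibroblast-like nuclei (1) gave 0 by DESeq2, 2 without a filter, 0 at 1000 UMIs, 2 with shared barcodes kept and 0 by own markers. All barcodes (9) gave 4 with totals alone, 15 without a filter and 15 with shared barcodes kept. With the replicate number as a block, the counts were 14 in endothelial-like (9) and 5 in fibroblast-like nuclei (8) between the ages, and 8 in cardiomyocyte-like (4), 1 in endothelial-like (0) and 2 in fibroblast-like nuclei (1) in the knockout. Same-numbered libraries correlated at −0.25 to 0.28 and others at −0.33 to 0.34. These values reuse the same libraries and their ranges overlap, so they cannot decide whether the numbers pair libraries. The labels do not say. Leaving out each library gave 0 to 17 calls in cardiomyocyte-like, 1 to 14 in fibroblast-like, 0 to 13 in endothelial-like and 0 to 3 in endocardial-like nuclei and 0 to 19 in all barcodes between the ages, and 1 to 7, 0 to 2, 0 to 0, 0 to 0 and 1 to 18 in the knockout. With totals alone the median of all genes moved from −0.04 to −0.16 with age and from 0.02 to 0.13 in the knockout in cardiomyocyte-like nuclei, from 0.00 to −0.15 with age in endothelial-like nuclei, and in all barcodes from −0.02 to −0.23 with age and from 0.03 to −0.08 in the knockout, while the members' medians kept their sign (−0.76, 0.39, −0.80, −0.50 and 0.25). For members, shares moved with mitochondrially encoded UMIs in the total to 0.188% in control P10 and 0.269% in KO P10 of fibroblast-like nuclei and 0.264% in control P10 of all barcodes, and by own markers to 0.284% in KO P10 of fibroblast-like and 0.248% in KO P10 of endothelial-like nuclei. For cytosolic genes, own markers gave 1.15% in KO P10 of endothelial-like nuclei. Leaving out each library, the members' share in control P6, control P10 and KO P10 ran over 0.268% to 0.339%, 0.166% to 0.218% and 0.228% to 0.271% (cardiomyocyte-like), 0.311% to 0.405%, 0.218% to 0.254% and 0.301% to 0.322% (fibroblast-like), 0.426% to 0.535%, 0.242% to 0.328% and 0.324% to 0.393% (endothelial-like), 0.377% to 0.440%, 0.214% to 0.262% and 0.282% to 0.318% (endocardial-like), and 0.421% to 0.528%, 0.303% to 0.352% and 0.364% to 0.452% (all barcodes). Endocardial-like nuclei gave no value at 1000 UMIs or by own markers, nor in the 2-group fit between the ages. Depth limits what could be seen, as the smaller classes tested fewer members. Most 2-fold changes were missed in the simulated knockout comparison of cardiomyocyte-like and fibroblast-like sums. The other classes, the ages and the members themselves were not simulated.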
